A study of Homo sapiens with 12 samples.

Results

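The enzymes described here make or break down asparagine, alanine, aspartate, proline, glutamate and glutamine. They are 8 genes, ASNS, GPT2, GOT1, GLUL, GLUD1, ALDH18A1, PYCR1 and PRODH, taken by gene symbol from the 58735 gene rows of each count table, and each was found in both tables. The samples were RNA-seq libraries of 2 lines of human neuroblastoma, KELLY, in which MYCN is amplified, and SK-N-AS, in which it is not. Cells of each line received Erastin, a small molecule that blocks the cystine/glutamate antiporter system Xc, or DMSO, the solvent control, and RNA was taken at 24 h. KELLY was given 1 µM and SK-N-AS 2 µM Erastin, so that line and dose cannot be told apart, and each of the 4 groups held 3 samples from wells seeded in triplicate. Both are established lines grown as cultures, and no gene was altered in any group.

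These enzymes exchange amino groups and carbon between a few central metabolites. Asparagine synthetase moves nitrogen from glutamine onto aspartate, aminotransferases pass the amino group of glutamate on to alanine or aspartate, and glutamate is also the start of proline synthesis. System Xc exports glutamate in exchange for cystine, and cells that run short of amino acids are known to raise the transcription factor ATF4, which binds C/EBP-ATF response elements in the promoters of several biosynthetic genes, ASNS being the best studied of them.

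Because the ASNS response element is part of that background, the promoters were searched for the letters TGATGNAAN on both strands, from 250 bases before to 50 after the start site in the RefSeq table (GRCh38.p14). Entries for 5 of the 8 genes, ASNS, GOT1, GLUL, GLUD1 and ALDH18A1, were matched by symbol. A match was found in GOT1 and in 1 of the 2 windows of ASNS, and none in the windows of GLUL, GLUD1 and ALDH18A1. Of 27305 genes in the table, 4.45% held the motif in at least 1 window, and 0.282% held TGATGAAAC, the form in ASNS, which is one of the sequences that TGATGNAAN covers. Of 35116 windows 3.61% and 0.225% did. The 2 promoters with a match are shown as 250 bases before the start, 5′ to 3′ on the strand of the gene, with the matched bases in capitals. ASNS lies at chr7:97872409-97872658 and GOT1 at chr10:99430625-99430874, both on the minus strand. In ASNS the match starts 68 bases before the start site on the gene's own strand. In GOT1 it is read on the opposite strand as TGATGCAAC, and its first base in the line lies 199 bases before the start site. A match describes letters in this window and shows no binding.
ASNS: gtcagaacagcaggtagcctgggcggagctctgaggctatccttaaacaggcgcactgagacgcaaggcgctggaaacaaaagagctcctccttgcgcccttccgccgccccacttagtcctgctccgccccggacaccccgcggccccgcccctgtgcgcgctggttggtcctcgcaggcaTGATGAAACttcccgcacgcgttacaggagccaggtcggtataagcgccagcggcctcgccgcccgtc
GOT1: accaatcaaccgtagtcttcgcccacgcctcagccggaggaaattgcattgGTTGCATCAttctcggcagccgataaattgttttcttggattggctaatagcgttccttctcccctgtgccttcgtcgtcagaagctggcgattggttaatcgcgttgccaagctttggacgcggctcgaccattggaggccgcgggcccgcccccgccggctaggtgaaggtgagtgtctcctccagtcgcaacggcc

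Each sample held 24169796 to 29835670 counts in total. The cell labels were checked against marker genes in CPM (counts scaled to a common library size). CPM values of the enzymes and the pathway genes were taken after TMM scaling, which also corrects for library composition, and those of the markers were not. MYCN had 4531 to 6612 CPM in the 6 KELLY samples and at most 0.406 CPM in the 6 SK-N-AS samples. The adrenergic markers TH and DBH had 269 to 859 and 596 to 2128 CPM in KELLY but at most 3.30 and 5.91 CPM in SK-N-AS, where the mesenchymal-type markers VIM (1306 to 1554 CPM) and PRRX1 (228 to 349 CPM) were high. PTPRC, a blood cell gene, had 447 to 609 CPM in SK-N-AS and 0 in KELLY, while the other 5 blood cell markers had at most 0.703 CPM in any library. The libraries of neither line shared one relation between abundance and GC content. The strongest trends were in the first DMSO and the first Erastin library of KELLY, where Spearman's correlation across 12081 genes between GC content and the log2 ratio to the mean of the line was -0.83 and 0.86. In SK-N-AS it was 0.77 in the first and -0.75 in the third DMSO library, across 11932 genes. Genes are not independent replicates, and these values describe the libraries only.

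In SK-N-AS, 4 of the 8 enzymes rose with Erastin. These were ASNS, GPT2, GOT1 and PYCR1, by 1.43 to 4.85 times, and in each of them every Erastin sample lay above every DMSO sample. GLUL, GLUD1 and ALDH18A1 were within 0.07 log2 units of the control, and PRODH was too low to test. Of the 16095 genes tested in this line 0.46% rose at an adjusted p under 0.05 and 0.199% fell, and 7.64% had every Erastin sample above every DMSO sample. In KELLY none of the 7 tested enzymes passed the adjusted threshold with edgeR, where 1 of 16258 genes (0.00615%) did. ASNS and GPT2 were nevertheless 3.05 and 2.47 times as abundant there with Erastin, 3 of the 7 had an unadjusted p under 0.05, as had 2.64% of all genes tested, and DESeq2 called 2, beside 0.191% of all genes. The study's own threshold, an unadjusted p of at most 0.05 with a fold change of at least 1.5, was passed by ASNS, GPT2 and PYCR1 in each line, against 1.29% of all genes tested for higher values in KELLY and 1.34% in SK-N-AS. PYCR1 did not pass it in KELLY with the GC correction, with the replicate block, without both first libraries, or without the first or the third DMSO library or the first Erastin library. The median log2 fold change of the 7 was 0.19 in KELLY and 0.52 in SK-N-AS, and that of all genes tested was 0.0052 and -0.0089.

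**Figure D1:**
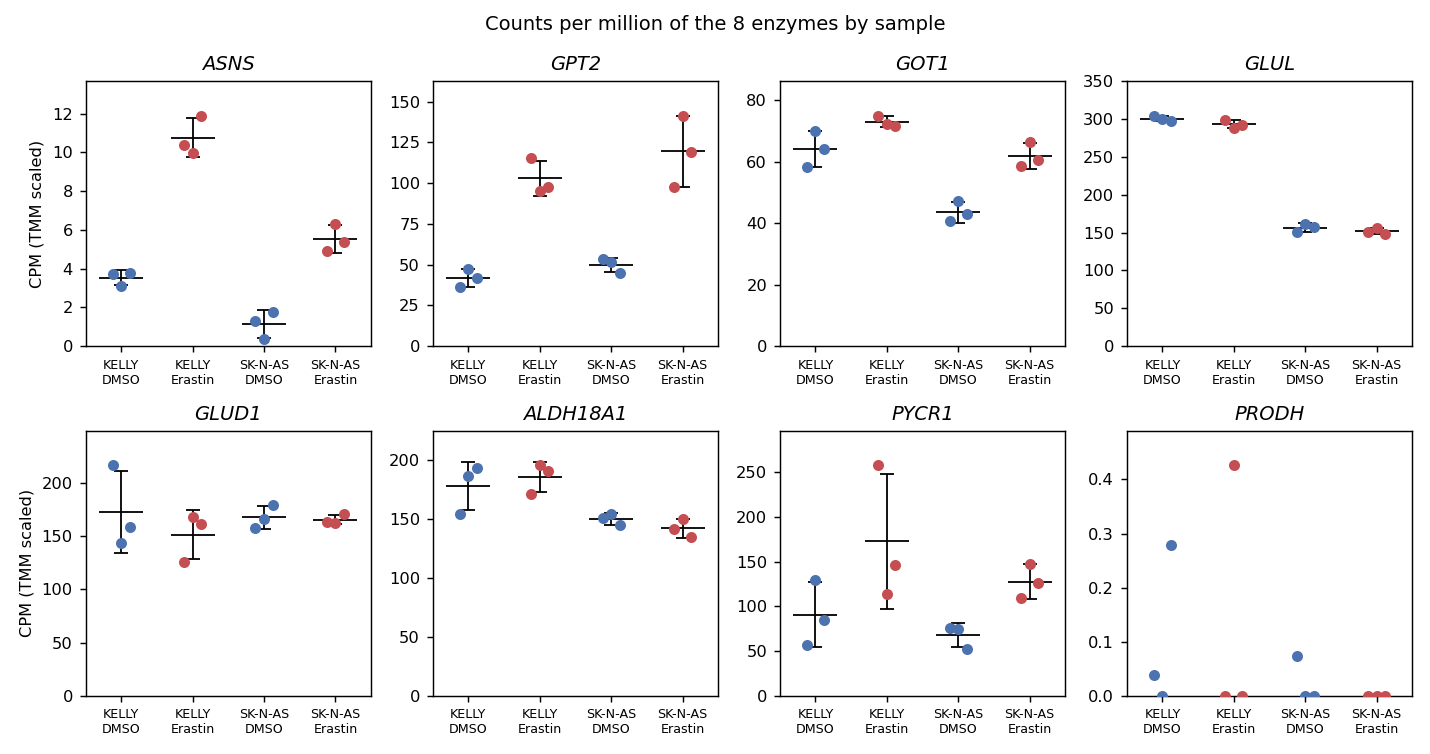
CPM (TMM scaled, linear axis from 0) of the 8 enzymes in the 12 samples, with 1 point per sample, DMSO in blue and Erastin in red, and the mean and SD of 3 samples in black, except for PRODH, where single counts set the values. The Erastin points of ASNS and GPT2 lie above all DMSO points of their line, GLUL separates the lines but not the treatments, and PYCR1 spreads from 57.3 to 258 CPM in KELLY.

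ASNS, asparagine synthetase, makes asparagine from aspartate and glutamine. In SK-N-AS with DMSO it had 35, 9 and 47 counts, which is 1.29, 0.358 and 1.77 CPM, and with Erastin 133, 186 and 138 counts, or 4.90, 6.33 and 5.38 CPM. The lowest Erastin sample was thus above the highest control, while the control counts were small and the second library stood below the other two. This was a log2 fold change of 2.28 ± 0.34 (standard error) with an edgeR adjusted p of 0.00624. It was 1.87 without the second DMSO library and 2.73 without the third, and it was called each time a library was left out. In KELLY the DMSO samples had 96, 76 and 108 counts (3.73, 3.09 and 3.78 CPM) and the Erastin samples 253, 258 and 329 (10.4, 10.0 and 11.9 CPM). The groups were far apart in this line too. Here the log2 fold change was 1.61 ± 0.19 (standard error), with an unadjusted p of 3.45e-05 and an edgeR adjusted p of 0.114, and 4.35% of the genes tested in KELLY had every Erastin sample above every control. The value stayed between 1.52 and 1.75 under 19 alternatives, of which 4 called it (DESeq2, no filter on low counts, the GC correction, and both first KELLY libraries left out, the last chosen after seeing the data).

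The ASNS counts carry limits of their own. In GENCODE release 44, 2415 of its 4896 exonic bases are shared with ENSG00000284707, a long non-coding RNA on the same strand that has no row of that name in the count tables, so that reads in the shared bases cannot be assigned to 1 of them where both are annotated. Whether that RNA was in the earlier release used for the counting was not tested. How the counting treated such reads is not given in the sources used here, and the level of ASNS is therefore not compared with other genes. The pseudogene ASNSP1, a near-identical copy, had 46, 60 and 64 counts in the KELLY controls and 158, 119 and 150 in the treated samples. That is high beside the gene itself. Copies of ASNS held 53.3% as many counts as ASNS in KELLY and 10.0% as many in SK-N-AS, where ASNSP1 had 1, 2 and 1 counts in the controls and 6, 22 and 16 in the treated samples. Reads of a gene and such a copy can be split by the counting, and whether these counts come from ASNS was not tested. With the copies added, the log2 fold change was 1.52 in KELLY and 2.26 in SK-N-AS.

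GPT2, the mitochondrial alanine aminotransferase, makes alanine from pyruvate with the amino group of glutamate. In SK-N-AS it had 53.1, 51.5 and 44.6 CPM with DMSO and 97.7, 141 and 119 CPM with Erastin. Every treated sample was well above the controls. A log2 fold change of 1.27 ± 0.13 (standard error) was found, with an edgeR adjusted p of 3.43e-04, and all 18 alternatives called it, with values from 1.14 to 1.40. In KELLY it had 36.0, 47.6 and 41.7 CPM with DMSO and 115, 95.4 and 97.8 CPM with Erastin, again without overlap. Its log2 fold change there was 1.30 (standard error 0.17), with an unadjusted p of 7.26e-05 and an adjusted p of 0.192 from edgeR. It ranged from 1.10 to 1.40 over 19 alternatives, and 5 of them called it.

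GOT1, the cytosolic aspartate aminotransferase, passes amino groups between aspartate and glutamate. In SK-N-AS it had 40.5, 47.1 and 42.9 CPM with DMSO and 58.4, 66.5 and 60.5 CPM with Erastin. The groups were separate, and the rise was the smallest of the 4. It rose by 0.52 ± 0.10 log2 units (standard error, edgeR adjusted p = 0.0279), a fold of 1.43 and so below the fold limit of the study's threshold. The call rested on single libraries. The edgeR adjusted p was 0.102 without the second DMSO library, and 0.105, 0.221 and 0.136 without Erastin replicate 1, 2 and 3, while the log2 fold change stayed between 0.47 and 0.58. In KELLY it had 58.4, 69.8 and 64.2 CPM with DMSO and 75.0, 72.1 and 71.8 CPM with Erastin. The treated samples were higher without overlap, but the log2 fold change was 0.19 (95% interval -0.14 to 0.52, adjusted p = 0.770 from edgeR).

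Proline is made from glutamate by ALDH18A1, the synthase of the first steps, and by reductases such as PYCR1, and is broken down by PRODH, proline dehydrogenase. PYCR1, a mitochondrial reductase, rose in SK-N-AS, from 75.8, 74.8 and 52.5 CPM with DMSO to 110, 148 and 126 CPM with Erastin. The lowest treated sample was above the highest control. The rise was 0.92 ± 0.14 log2 units (standard error, edgeR adjusted p = 0.00817), and 17 of 18 alternatives called it. The exception was a single fit of all 12 samples, which shares the spread with KELLY and gave an adjusted p of 0.870. In KELLY it had 57.3, 130 and 85.3 CPM with DMSO and 258, 114 and 147 CPM with Erastin, so that the groups overlapped through the second library of each. The log2 fold change was 0.93, and its 95% interval ran from 0.06 to 1.81 (unadjusted p = 0.0398, edgeR adjusted p = 0.770).

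The spread of PYCR1 in KELLY moved with the GC trend of the libraries. The longest transcript of PYCR1 of any type has 63.1% GC. The trend gave PYCR1 -0.68 log2 units in the first DMSO library and 0.68 in the first Erastin library. With the trend of each library removed, the SD of the log2 values fell from 0.59 to 0.15 among the DMSO samples and from 0.61 to 0.17 among the Erastin samples, and the lowest Erastin sample was then 0.23 log2 units above the highest control. The GC-corrected log2 fold change was 0.53 (edgeR adjusted p = 0.239), beside 0.99 in SK-N-AS. Without both first libraries it was 0.28 (edgeR adjusted p = 0.979), a choice made after seeing the data. Leaving out a single library gave values from 0.52, without the first Erastin library, to 1.28, without the second DMSO library. PYCR1 also shares 408 of its exonic bases with MYADML2 on the same strand and 450 with a long non-coding RNA on the other strand, so that reads there may be split or lost.

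**Figure D2:**
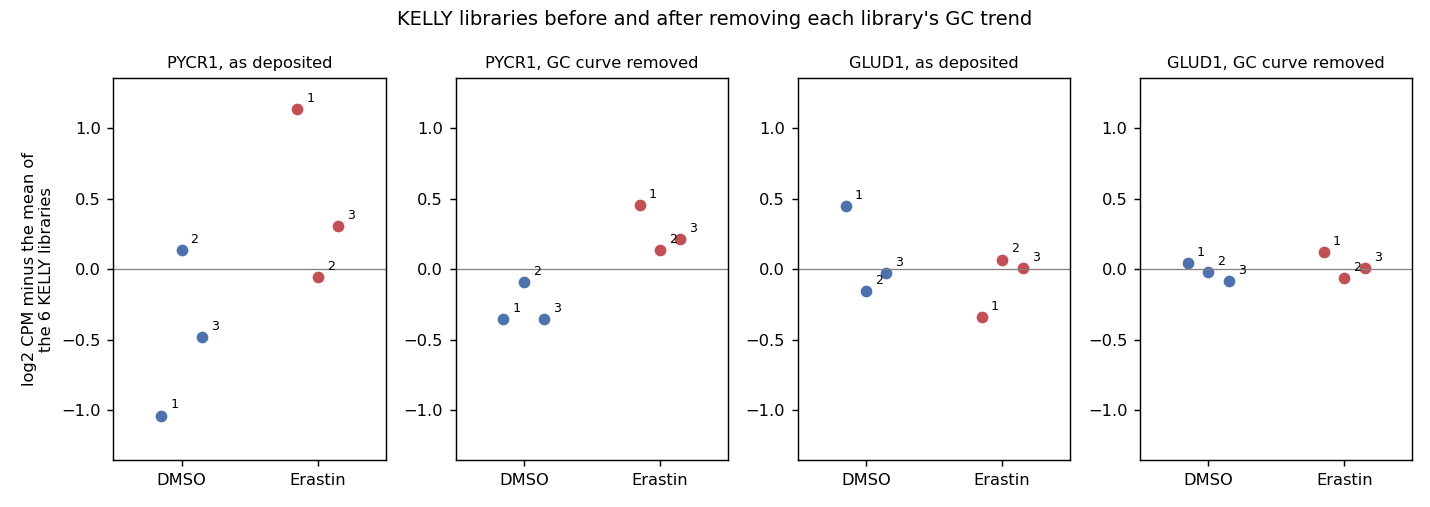
Log2 CPM of PYCR1 and GLUD1 in the 6 KELLY libraries, relative to their mean, as deposited and with the GC curve of each library removed. Numbers beside the points are replicate numbers. As deposited, the first DMSO and the first Erastin library lie farthest from the mean in both genes, in opposite directions in PYCR1 and GLUD1, and after removal the groups of PYCR1 no longer overlap while those of GLUD1 do.

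ALDH18A1, in contrast to PYCR1, was near its control level in each line. It had 151, 155 and 145 CPM with DMSO and 142, 150 and 134 CPM with Erastin in SK-N-AS (log2 fold change -0.07, 95% interval -0.24 to 0.10). In KELLY it had 154, 186 and 193 CPM with DMSO and 172, 196 and 191 CPM with Erastin (log2 fold change 0.07, 95% interval -0.27 to 0.40). Treated and control samples overlapped in each line. PRODH had 1, 0 and 8 counts in the KELLY controls and 0, 11 and 0 in the treated samples, and in SK-N-AS 2, 0 and 0 with DMSO and 0 in all 3 Erastin samples. It did not pass the filter in any comparison. A count of 0 allows up to 3 counts, or 0.101 to 0.124 CPM at these depths, and PRODH exceeded 3 counts in 2 of the 12 libraries. Such a floor covers counting error only.

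GLUL and GLUD1 handle glutamate itself. GLUL, glutamine synthetase, joins ammonia to glutamate. It had 150, 162 and 157 CPM with DMSO and 151, 157 and 148 CPM with Erastin in SK-N-AS, and 305, 301 and 297 CPM with DMSO and 299, 288 and 292 CPM with Erastin in KELLY. The treated and control samples overlapped in each line, and the replicates of GLUL were close, with coefficients of variation from 1.27% to 3.72%. The log2 fold change was -0.03 in SK-N-AS (95% interval -0.20 to 0.14) and -0.03 in KELLY (95% interval -0.31 to 0.24).

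GLUD1, glutamate dehydrogenase, turns glutamate into 2-oxoglutarate in mitochondria. In SK-N-AS it had 158, 166 and 180 CPM with DMSO and 164, 163 and 171 CPM with Erastin (log2 fold change -0.0092, 95% interval -0.19 to 0.17). In KELLY it had 217, 144 and 158 CPM with DMSO and 126, 168 and 161 CPM with Erastin (log2 fold change -0.19, 95% interval -0.66 to 0.28). As in PYCR1, the first library of each KELLY group was the farthest from the rest, here in the other direction. The longest transcript of GLUD1 of any type has 39.2% GC. The trend gave GLUD1 0.40 log2 units in the first DMSO library and -0.46 in the first Erastin library. Its GC-corrected log2 fold change was 0.04. The sign of the small difference in KELLY therefore depended on the correction. GLUD2, a retained copy of GLUD1 that is transcribed from its own locus, had 12.1, 12.6 and 12.4 CPM in SK-N-AS with DMSO and 9.80, 9.49 and 9.66 CPM with Erastin. GLUD2 was not called there (log2 fold change -0.35, edgeR unadjusted p = 0.00817, edgeR adjusted p = 0.292). In KELLY it had at most 1.32 CPM.

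**Figure D3:**
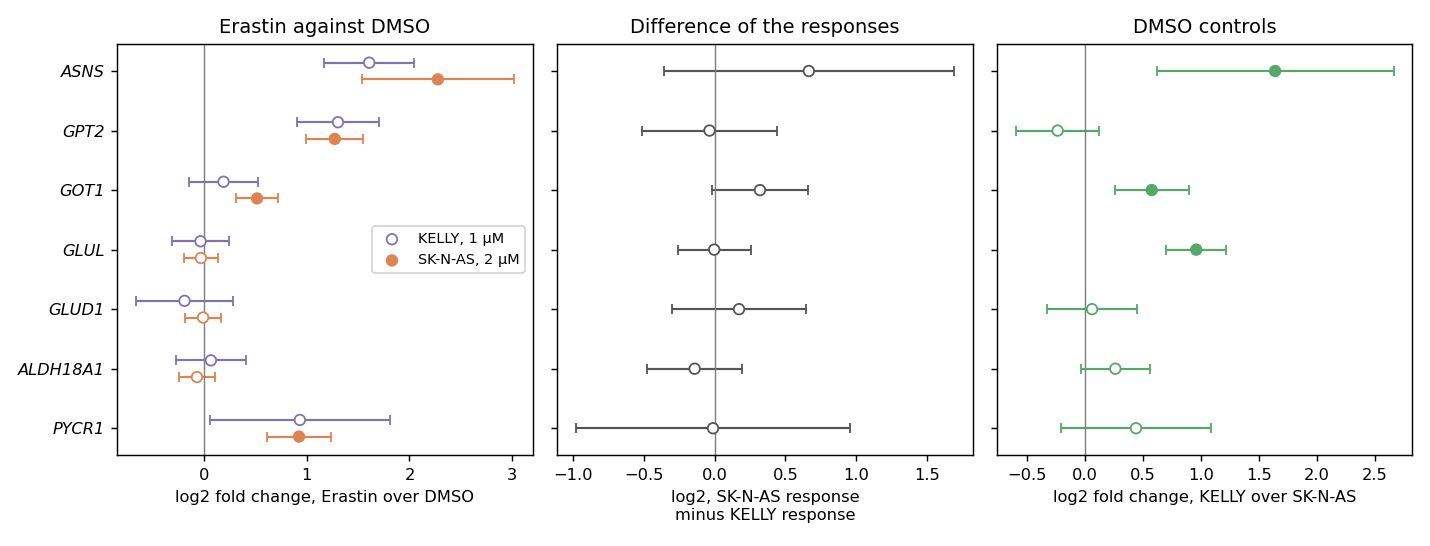
Log2 fold changes of the 7 tested enzymes with 95% intervals from edgeR, for Erastin over DMSO in each line, for the difference between these responses, and for KELLY over SK-N-AS in the DMSO samples. Filled points have an adjusted p under 0.05. They are ASNS, GPT2, GOT1 and PYCR1 in SK-N-AS and ASNS, GOT1 and GLUL between the controls, and all intervals of the differences between responses include 0.

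Whether the response differed between the lines was tested as a treatment by line interaction with all 12 samples, with 1 of 18239 genes called (0.00548%). None of the 7 enzymes was called by edgeR or by DESeq2, and none had an unadjusted p under 0.05. GOT1 came closest, with a response 0.32 log2 units larger in SK-N-AS than in KELLY (95% interval -0.02 to 0.66, unadjusted p = 0.0644, edgeR adjusted p = 0.811). ASNS differed by 0.67 with a wide interval (-0.36 to 1.69), and by 0.25 without the second SK-N-AS DMSO library and 1.12 without the third. For GPT2 the difference was -0.04 (95% interval -0.51 to 0.44), and for PYCR1 it was -0.01 with an interval of nearly 1 log2 unit to either side (-0.98 to 0.96). The PYCR1 value depended on the libraries with steep GC trends. It was 0.46 with the GC correction and 0.65 without both first KELLY libraries (chosen after seeing the data), and ran from -0.36, without the second KELLY DMSO library, to 0.39, without the first KELLY Erastin library. GLUL, at -0.0040 (95% interval -0.26 to 0.25), had the narrowest interval. The calls made in SK-N-AS and not in KELLY are thus not shown to be responses that differ between the lines.

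The DMSO samples were also compared between the lines. These are the same control samples as above, so that the results are not independent of the Erastin comparisons. Between the lines 30.9% of 17089 genes were higher in KELLY and 30.3% lower at an adjusted p under 0.05, and the 3 enzymes that were higher in KELLY, ASNS, GLUL and GOT1, are to be read against that. GLUL was 1.94 times as abundant in KELLY (301 ± 3.82 against 156 ± 5.82 CPM, SD, n = 3), a log2 difference of 0.96 (standard error 0.11, adjusted p = 1.01e-04 from edgeR). GOT1 was 1.49 times as abundant (64.1 ± 5.74 against 43.5 ± 3.34 CPM, SD, n = 3, log2 difference 0.57, standard error 0.14, edgeR adjusted p = 0.00677). For ASNS the log2 difference was 1.64 (standard error 0.45, edgeR adjusted p = 0.0117), at 3.53 ± 0.386 against 1.14 ± 0.716 CPM (SD, n = 3). It was 1.21 without the second SK-N-AS library and 2.17 with the copies added, where ASNSP1 had 46 to 64 counts in the KELLY controls and at most 2 in those of SK-N-AS.

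The other 4 tested enzymes were not called between the controls. GPT2 had a log2 difference of -0.24 (95% interval -0.60 to 0.12), GLUD1 of 0.06 (95% interval -0.33 to 0.45), ALDH18A1 of 0.26 (95% interval -0.04 to 0.56) and PYCR1 of 0.44 (95% interval -0.21 to 1.09). ALDH18A1 and PYCR1 depended on single KELLY libraries. Without the first, which stands apart in its GC trend, their log2 differences were 0.36 (edgeR adjusted p = 0.0190) and 0.69 (edgeR adjusted p = 0.00597). Without the second PYCR1 had 0.09 (edgeR adjusted p = 0.743), and without the third ALDH18A1 had 0.20 (edgeR adjusted p = 0.352). GC correction, with which 73.9% of all genes were called, called ALDH18A1, PYCR1 and GPT2 as well, GPT2 with the lower level in KELLY. The GC curve of each library was taken relative to the mean of its own line. The correction therefore acts on the spread within a line and cannot remove a GC difference between the lines.

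Levels of the enzymes can be compared with each other only per length. Divided by the exonic length of each gene in kilobases, ALDH18A1 was the highest in the DMSO samples of each line, at 47.4 ± 5.48 CPM per kb in KELLY and 39.9 ± 1.31 in SK-N-AS (SD, n = 3). PYCR1 followed with 31.5 ± 12.7 and 23.5 ± 4.56, GOT1 with 26.5 ± 2.37 and 18.0 ± 1.38, GLUL with 23.8 ± 0.302 and 12.4 ± 0.460, GLUD1 with 12.1 ± 2.70 and 11.7 ± 0.767, and GPT2 with 6.56 ± 0.909 and 7.82 ± 0.716 CPM per kb. In KELLY the levels of PYCR1, GOT1 and GLUL lay within the SD of PYCR1, and in SK-N-AS GLUL and GLUD1 differed by less than their spread. The order holds for this length only. With the coding length GLUL was the highest in each line, at 198 ± 2.51 CPM per kb in KELLY and 103 ± 3.82 in SK-N-AS, where GLUD1, at 100.2 ± 6.54, was within the spread. GLUL has 12638 exonic bases and a coding length of 1521 bases, and GLUD1 has 14283 and 1674. PRODH was the lowest with either length, and ASNS is not placed in the order, because of its shared exons. PYCR1 is placed, but only 2028 of its 2886 exonic bases lie outside other genes, so its level and place carry a similar limit.

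The neighbouring enzymes of the same pathways were described with a list of 50 genes. In SK-N-AS 38 of them were tested, and 1 rose and 0 fell at an adjusted p under 0.05, with 7 at an unadjusted p under 0.05, where 8.77% of all genes tested were. The gene that rose was PSAT1, an aminotransferase of serine synthesis that takes its amino group from glutamate. It had 72.9 ± 8.40 CPM with DMSO and 295 ± 51.9 CPM with Erastin (SD, n = 3, log2 fold change 2.02, standard error 0.13, adjusted p = 6.18e-06 from edgeR). The study's threshold added P4HA3, a prolyl hydroxylase subunit, on the lower side, at under 1 CPM in each group, where 1.33% of all genes passed in that direction. BCAT1, a branched-chain aminotransferase, had an unadjusted p of 0.00142 and an edgeR adjusted p of 0.122, at a log2 fold change of 0.45. The counts depended on the processing and on the third DMSO library. PSAT1 and BCAT1 both rose with DESeq2, with no filter on low counts and with the replicate block. In these settings 1.36%, 0.863% and 1.91% of all genes were called. With the GC correction 2 genes of the list rose (PSAT1 and BCAT1) and 4 fell, where 5.96% of all genes were called. Those that fell were GFPT2, GLUD2, and CTPS1 and PPAT, which use glutamine in nucleotide synthesis. Without the third DMSO library PSAT1 and BCAT1 rose and GFPT2 fell, where 5.20% of all genes were called. The median log2 fold change of the list was -0.05.

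In KELLY 36 genes of the list were tested, and none passed the adjusted threshold with edgeR or DESeq2. With the GC correction and without both first libraries, the latter chosen after seeing the data, edgeR called PSAT1 as higher, where 0.197% and 0.140% of all genes were called. PSAT1 was the 1 gene with an unadjusted p under 0.05 and the 1 gene past the study's threshold, with 106 ± 21.1 CPM with DMSO and 185 ± 30.4 CPM with Erastin (SD, n = 3, log2 fold change 0.80, unadjusted p = 0.00427, edgeR adjusted p = 0.770). No gene of the list passed the study's threshold on the lower side, against 0.744% of all genes. The median of the list was 0.02. GOT2, the mitochondrial partner of GOT1, had log2 fold changes of -0.06 in SK-N-AS and -0.16 in KELLY, and its adjusted p was not under 0.05 in either line. Over the 39 genes of the list tested for a treatment by line interaction, the main edgeR fit called none. In that fit 5 had an unadjusted p under 0.05, beside 4.25% of all genes tested. The SK-N-AS response minus the KELLY response was above 0 in 1 of these, PSAT1, and below 0 in the other 4. PSAT1 was called by DESeq2, and by edgeR with no filter on low counts and with the GC correction. Of all genes, 0.0658%, 0.0229% and 0.0987% were called in these 3 settings. The PSAT1 response was 1.22 log2 units larger in SK-N-AS (standard error 0.25, unadjusted p = 4.05e-04, edgeR adjusted p = 0.652).

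**Figure D4:**
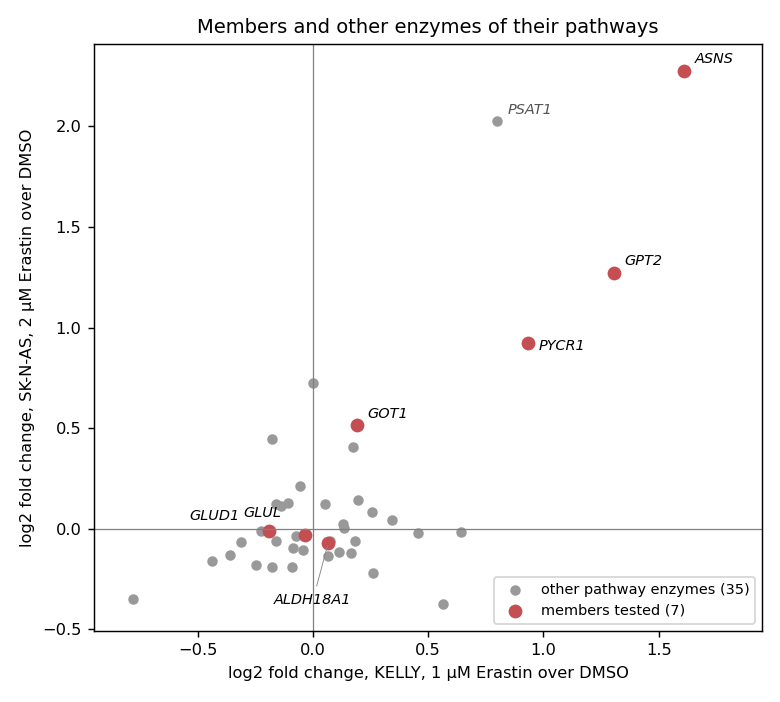
Log2 fold changes for Erastin over DMSO in KELLY (x axis) and SK-N-AS (y axis) of the 7 tested enzymes (red) and of the 35 other enzymes of their pathways that were tested in both lines (grey). ASNS, GPT2, PYCR1 and PSAT1 lie at the upper right, and most other enzymes lie near 0 in each line.

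Among the DMSO samples 14 of 39 tested genes of the list were higher in KELLY (35.9%) and 14 lower (35.9%), near the shares of 30.9% and 30.3% among all genes, with a median log2 difference of 0.09 beside 0.02 for all genes. The 6 largest by the rule for named genes included RIMKLA and NAT8L, which make N-acetylaspartylglutamate and N-acetylaspartate. RIMKLA had 40.6 ± 2.40 CPM in KELLY and 0.381 ± 0.0713 in SK-N-AS, and NAT8L had 26.2 ± 3.74 and 0.127 ± 0.0783 (SD, n = 3). ASRGL1, an asparaginase, was also higher in KELLY, at 18.0 ± 1.90 against 2.93 ± 0.487 CPM. On the lower side were ADSS1, an adenylosuccinate synthase, with 0.0872 ± 0.0761 CPM in KELLY and 5.47 ± 0.710 in SK-N-AS, GFPT2, which makes glucosamine 6-phosphate from glutamine, with 1.08 ± 0.604 and 22.0 ± 1.11 CPM, and GLUD2, with 1.02 ± 0.265 and 12.4 ± 0.232 CPM (SD, n = 3). All 6 had an edgeR adjusted p of at most 1.06e-05.

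The genes whose values followed each enzyme most closely were taken over the 12 samples, with log2 CPM centred on the mean of its line, among 12066 genes. These samples share the treatment, the depth and the GC trend, so the coefficients are a description and carry no test. GOT1 was followed most closely by ATF4 (r = 0.96), PHGDH and AARS, and GPT2 by MARS (r = 0.99), SESN2 and PCK2. For ASNS they were UHRF1BP1 (r = 0.92), SLC1A4 and MTHFD1L. PYCR1 followed HAX1 (r = 0.98), SHMT2 and STAT2, and GLUD1 followed RAB2A (r = 1.00), ZFAND5 and C1D. GLUL was nearest to NDUFAF2 (r = 0.92) and ALDH18A1 to MRPL9 (r = 0.91). The GC trend of each library was then removed, a choice made after seeing the data, and most of these neighbours changed. ATF4 remained the nearest gene to GOT1 (r = 0.96), followed by PMAIP1 and MTHFD2. HMOX1 (r = 0.99), JDP2 and AARS became the nearest to PYCR1, and NARS (r = 0.99), PSPH and SESN2 to GPT2. For ASNS they were KLHL24 (r = 0.94), SLC6A9 and SLC1A4, and for GLUD1 RAB2A (r = 0.93), GPS2 and CDC37L1. GLUL was nearest to NDUFAF2 (r = 0.98) and ALDH18A1 to RBBP8 (r = 0.95).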

How the data were processed

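Bulk RNA-seq was available for 12 samples of human neuroblastoma lines. The authors deposited raw counts per gene, 1 table per line, without normalization; according to their methods, paired-end reads were aligned to GRCh38 and counted with HTSeq on an earlier GENCODE release. Per the submitters' processing notes, Trimmomatic, HTSeq and DESeq2 were used, and the aligner is not given in the sources used here. The strand setting and the treatment of reads in more than 1 gene are not given either. No row without a gene name was present. Groups and replicate numbers were taken from the sample labels. Total counts lay between 24169796 and 29835670.

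Comparisons were fitted in R 4.3.3 with edgeR 4.0.16 (filterByExpr defaults, TMM, quasi-likelihood test, Benjamini-Hochberg over all genes tested, called at an adjusted p under 0.05). CPM values of the enzymes and the pathway genes were TMM scaled over all 12 samples, and those of the markers by library size alone. The study's own threshold (unadjusted p of at most 0.05, fold of at least 1.5) was applied as well. Gene positions, lengths and GC content came from GENCODE release 44 and promoters from RefSeq (GRCh38.p14); names were matched by symbol (36512) or older symbol (878). Alternatives were RLE factors, library size alone, DESeq2 1.42.0, limma-voom (limma 3.58.1), no filter, a minimum of 10 counts in each sample, only genes that code for proteins, a replicate block, a GC correction (loess, span 0.5), both together, copies added, 1 fit of 12 samples, and each replicate left out. Both first KELLY libraries left out, and likeness without the GC trend, were added after seeing the data. No sample was a copy of another of its group, and pairs from different groups were not compared. The fits were also run on simulated data without a GC trend, with a spread near that of SK-N-AS and below that of KELLY. These simulations therefore cannot show how the fits behave in KELLY. The genes, the pathway list and the markers were chosen with earlier results of these data known. All 8 enzymes were named, with up to 6 pathway genes per comparison (adjusted p under 0.05, mean log2 CPM of at least 1, largest change), and PSAT1 in KELLY and in the interaction, P4HA3, BCAT1, CTPS1, PPAT, GFPT2 and GLUD2 in SK-N-AS, and GOT2 were named after their values were seen. Individual values of some list genes are not reported here. The 3 genes with the highest r were taken as nearest to each enzyme, and fewer are named for GLUL and ALDH18A1.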

Additional observations from a re-analysis of the deposited data

How the results depend on the processing

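Over the 4 comparisons 550 values of single enzymes were recomputed. Of these 527 kept their side of the threshold, 6 lost a call and 17 gained one, and the sign changed in 43, where neither value was called. The number of enzymes called in KELLY at an adjusted p under 0.05 was 0, and it was 2 with DESeq2, with no filter, with the GC correction and without both first libraries (chosen after seeing the data), and 1 in a single fit of 12 samples; the cause was not tested. In SK-N-AS the count of 4 became 2 in the single fit of 12 samples and was 3 to 4 with 1 library left out. ASNS was not tested there or between the controls when at least 10 counts were required in every sample, and the count at the study's threshold between the controls then fell from 2 to 1. The count called between the controls rose from 3 to 6 with the GC correction, where the share of all genes called was 73.9%, and its range with 1 library left out was 3 to 5 (50.3% to 66.5% of all genes called), or 2 to 4 at the study's threshold. For the interaction 0 enzymes were past the study's threshold, 1 without both first KELLY libraries, and 0 to 1 with 1 library left out. The place in the order per kilobase changed for 8 of 16 enzyme and group pairs with the longest coding transcript and for 10 with the coding length.

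Samples with the same replicate number did not regularly deviate together (r from -0.79 to 0.34). These deviations hold the GC trend of each library, which was opposite in the first 2 KELLY libraries. They therefore cannot decide whether the number is a pairing. With the replicate block the counts called were 0 in KELLY, 4 in SK-N-AS, 0 for the interaction and 3 between the controls. With the block and the GC correction together they were 0, 4, 0 and 6. The shares of all genes called were 0%, 1.91%, 0% and 52.9% with the block. With the block and the GC correction they were 0.0308%, 10.2%, 0.0219% and 70.6%.

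Low counts limit ASNS in the SK-N-AS controls, at 9 to 47 counts, and PRODH in all samples, and why they were low was not tested. In KELLY the 95% interval of PYCR1, which was not called, ran from 0.06 to 1.81 log2 units.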
